A study of Mus musculus with 11 samples.

Results

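The genes described here are 2 RAS genes, Hras and Nras, and 7 genes that ERK signalling switches on or that curb it, namely the phosphatases Dusp4, Dusp5 and Dusp6, the Sprouty genes Spry1, Spry2 and Spry4, and the transcription factor gene Etv4. They were chosen by symbol, all 9 were measured among 20352 genes, and together they held 71 of the 211507 probesets used. A gene's level was the median over its probesets on the log2 scale, where a difference of 1 is a 2-fold change. Expression came from 11 mouse arrays that read cDNA made by amplifying total RNA of frozen pieces. Keratoacanthoma, a squamous tumour of keratinocytes, was on 5 arrays, and all its hosts carried the K14-Cre and Zmiz1 transgenes together. Normal skin was on 6 arrays, with 2 each for double transgenic mice, for K14-Cre without Zmiz1 and for the Zmiz1 transgene without Cre. No skin free of both transgenes was among the groups compared. K14-Cre drives Cre recombinase from the promoter of keratin 14, so that recombination is directed at basal keratinocytes, and Zmiz1 encodes a transcriptional co-activator related to the PIAS proteins. The labels gave neither age nor sex, nor the number of animals sampled. P-values therefore measured only the spread between these arrays, which may be technical.

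RAS proteins are membrane switches that carry growth factor signals when bound to GTP. They recruit RAF kinases, which activate MEK and then ERK, and ERK phosphorylates transcription factors that turn on early growth genes. Among those genes are brakes on the same route: DUSP phosphatases strip the activating phosphates from ERK or related kinases, and Sprouty proteins hold back signalling between growth factor receptors and RAF. Transcript levels of such brakes are often read as a trace of ERK activity. In mouse skin, activating mutations of Hras are the classical first step of chemically induced papillomas. The arrays measured RNA levels and say nothing of mutation, GTP loading or phosphorylation.

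Dusp6, the cytoplasmic ERK phosphatase, and Dusp5, the nuclear ERK phosphatase, are close in function but changed unequally, so the bases before their gene starts are shown together with those of Nras, the other member that changed. Windows for 6 of the 9 members were used, from RefSeq (GRCm38.p6, while the arrays' annotation used mm9). The members' windows were filtered by chromosome in the analysis, whereas the set of all windows was not, so RefSeq may hold windows for other members. The 250 bases before the start are given 5′ to 3′ on the gene's strand. In Dusp6 (chr10:99262981-99263230, plus strand) and Nras (chr3:103058035-103058284, plus strand) capitals mark the ETS core GGAA on either strand. In Dusp5 (chr19:53528895-53529144, plus strand) they mark matches to the CArG box, the site of serum response factor, and to TGACG, the core of the cAMP response element, on either strand. The ETS cores of Dusp5 are not marked.
Dusp6: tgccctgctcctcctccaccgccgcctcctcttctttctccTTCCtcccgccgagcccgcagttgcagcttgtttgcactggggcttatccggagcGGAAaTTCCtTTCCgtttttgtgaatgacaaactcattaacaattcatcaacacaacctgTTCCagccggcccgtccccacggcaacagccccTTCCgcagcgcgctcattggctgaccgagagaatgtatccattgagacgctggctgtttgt
Dusp5: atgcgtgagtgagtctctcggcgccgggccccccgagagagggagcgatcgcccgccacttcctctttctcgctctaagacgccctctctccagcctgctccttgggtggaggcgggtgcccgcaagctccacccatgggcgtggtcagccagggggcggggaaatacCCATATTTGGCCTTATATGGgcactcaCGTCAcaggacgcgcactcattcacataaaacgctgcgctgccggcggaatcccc
Nras: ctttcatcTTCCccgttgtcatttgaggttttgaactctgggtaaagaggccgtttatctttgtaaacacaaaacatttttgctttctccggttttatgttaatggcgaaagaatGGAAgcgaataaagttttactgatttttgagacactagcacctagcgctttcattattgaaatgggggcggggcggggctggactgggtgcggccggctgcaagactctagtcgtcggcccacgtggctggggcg

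The Dusp6 window held 6 ETS cores, 3 of them between positions -154 and -141 from the start, and no CArG box, TGACG or AP-1 site (TGANTCA). At least 6 ETS cores stood in 8.69% of the 32851 windows of this length, with a median of 3. The Dusp5 window held 2 adjoining CArG boxes, CCATATTTGG and CCTTATATGG, and 3 ETS cores. A CArG box stood in 1.47% of all windows and 2 or more in 6 windows. TGACG stood in 17.8% of all windows, with 1 match in Dusp5 and 2 in Hras. Nras had 2 ETS cores, Hras and Spry2 3 each and Spry1 1, and none of these had a CArG box. These matches describe letters in a window and not bound sites.

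The groups differed widely in tissue make-up. Lists of marker genes were averaged on the log2 scale, and calls on their genes are those of limma with Benjamini-Hochberg adjusted p below 0.05. The keratinocyte list averaged 10.5 to 10.59 in the tumours and 9.43 to 10.08 in normal skin, with 5 of 10 genes higher, so that keratinocyte markers were high in both. Skeletal muscle genes were lower in the tumours in 15 of 15 cases (5.63 to 7.18 against 10.24 to 11.54). Fat cell genes were lower in 7 and higher in 1 of 10, and fibroblast genes lower in 4 of 10. Neutrophil genes were higher in 8 of 12 (6.65 to 7.82 against 5.23 to 5.75) and macrophage genes lower in 3 of 10. T cell genes were lower in 1 of 7, and endothelial genes higher in 3 and lower in 1 of 10. Of all genes 14.5% were called higher and 10.8% lower, so the T cell and endothelial counts lower were near the share of all genes. Hair follicle genes stood high on keratoacanthoma 4 (8.18) and normal skin 1 and 3 (9.25 and 8.95), and at 5.72 to 6.13 on the other arrays. Of the 14 hair follicle genes measured, 1 was called lower and none higher. In such bulk samples fewer cells of a type cannot be told apart from less RNA per cell, and the part of these lists in the results below was not tested except where a value is given.

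Against normal skin, 2 of the 9 members were higher in keratoacanthoma and none was lower. Across all 20352 genes limma called 14.5% higher and 10.8% lower, and 25.3% in either direction. The 2 were Dusp6, raised 4.47-fold, and Nras, raised 1.37-fold. The median change over the 9 members was 0.15, beside -0.04 over all genes. Hras, Dusp4, Dusp5, Spry1, Spry2, Spry4 and Etv4 did not pass the test, with changes between -0.08 and 0.39.

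**Figure D1:**
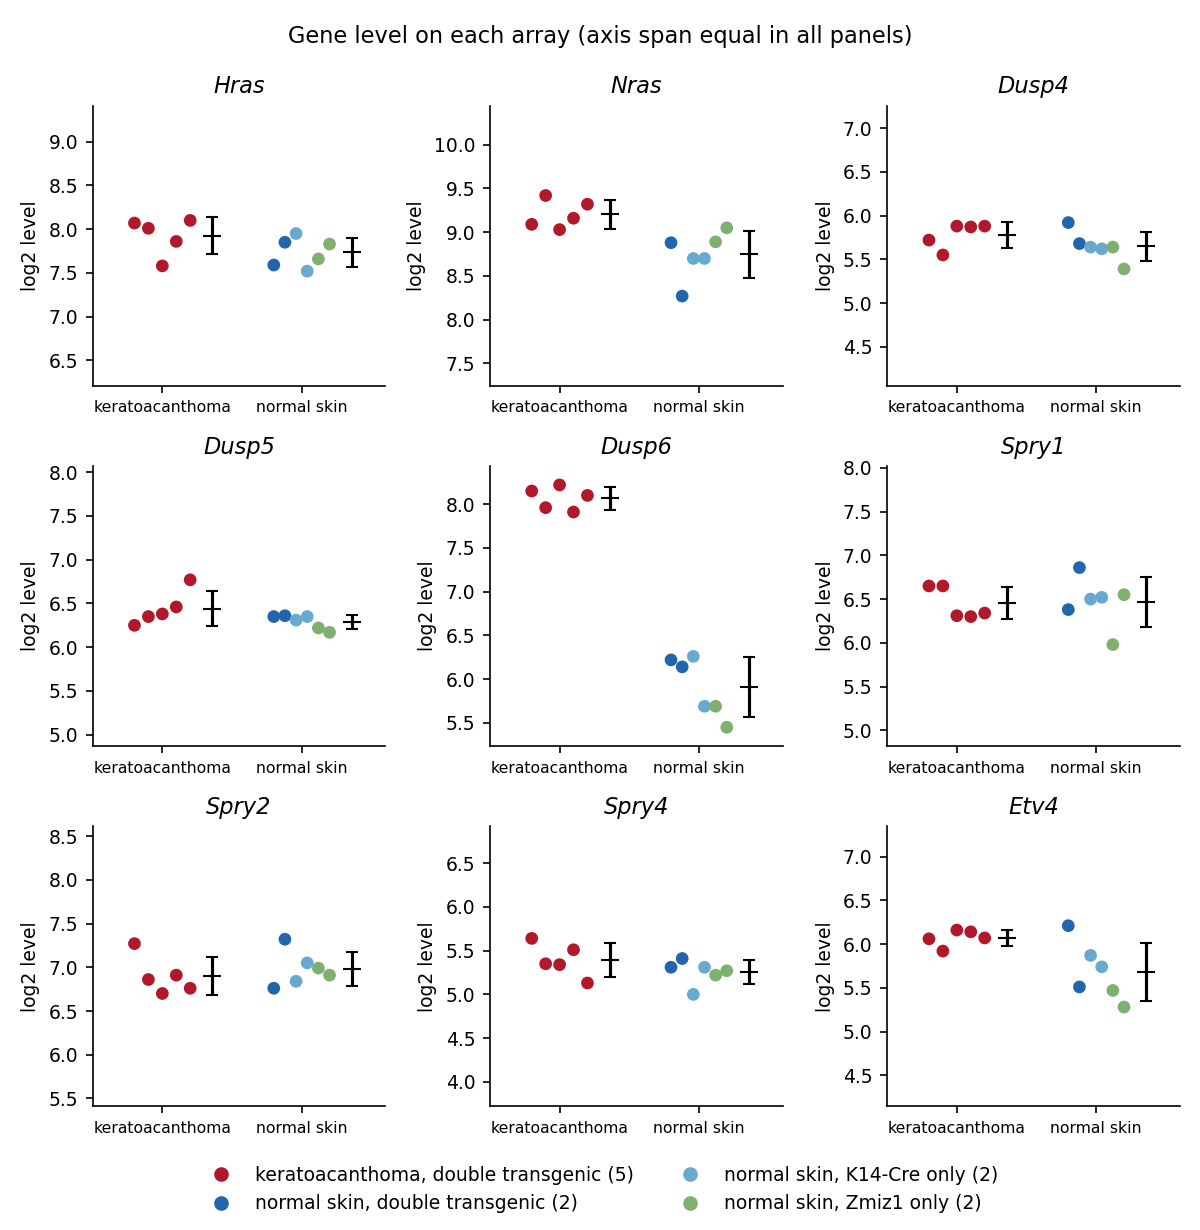
Log2 level of each of the 9 genes on the 5 keratoacanthoma arrays (red) and the 6 normal skin arrays, coloured by genotype, with the mean and SD of each group as a bar beside the points. Dusp6 is the gene whose groups stand apart, at 7.91 to 8.22 and 5.45 to 6.26.

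Dusp6 stood alone among the members in the size of its rise. Its log2 level was 8.15, 7.96, 8.22, 7.91 and 8.10 in keratoacanthoma 1 to 5. Normal skin ran from 5.45 through a median of 5.92 to 6.26. The lowest tumour thus lay 1.65 above the highest normal skin. The means were 8.07 ± 0.13 (SD, n = 5) and 5.91 ± 0.34 (n = 6), a log2 difference of 2.16 (SE 0.16, limma adjusted p = 1.4e-06). An exact permutation test, two-sided, gave p = 0.0043, the smallest that 5 against 6 arrays can give. Groups did not overlap in 16.0% of all genes, and in 9.66% with the tumours higher. By p-value Dusp6 ranked 45 and by size of rise 106 of 20352 genes.

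Within normal skin Dusp6 was not level. Normal skin 1, 2 and 3 stood at 6.22, 6.14 and 6.26 and normal skin 4, 5 and 6 at 5.69, 5.69 and 5.45. The higher 3 included both double transgenic skins and both normal skins with high hair follicle genes. Without the 3 arrays high in hair follicle genes the tumour difference was 2.36 (adjusted p = 5.3e-06), and with a covariate for the hair follicle list it was 2.21 (adjusted p = 6.8e-07). Dusp6 also kept its call in each fit that left out 1 array, with differences of 2.07 to 2.23. The 5 tumours spanned 0.31 in Dusp6, and their neutrophil list ran from 6.65 to 7.82. A link between them was not tested.

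All 4 Dusp6 probesets were higher, and none of them overlapped between the groups, where 11.4% of all probesets did not. The strongest rose by 2.80 on the log2 scale (SE 0.25, adjusted p = 2.5e-05 over all probesets), from 5.60 ± 0.57 to 8.40 ± 0.15. Others rose by 2.33 and 1.83, and the weakest by 0.58 (SE 0.13, adjusted p = 0.013). Of all probesets 8.29% were called higher and 6.98% lower, 15.3% together. Over the 71 probesets of the 9 members, 9 were called higher and 2 lower.

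**Figure D2:**
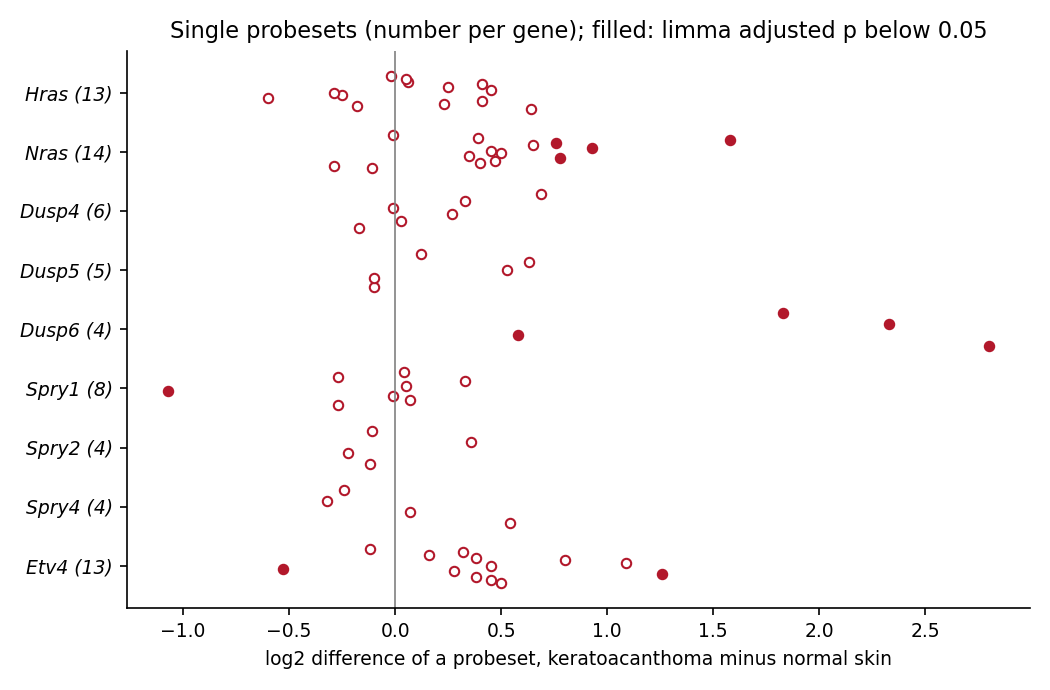
Log2 difference between keratoacanthoma and normal skin for each of the 71 probesets, one row of points per gene with its number of probesets. Filled points passed limma at an adjusted p below 0.05. The 4 points of Dusp6 lie between 0.58 and 2.80, whereas those of Hras lie on both sides of 0.

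Dusp4 and Dusp5 did not follow. Dusp4, a nuclear phosphatase of ERK and other MAP kinases, stood at 5.72, 5.55, 5.88, 5.87 and 5.88 in the tumours and at 5.39 to 5.92, median 5.64, in normal skin. The ranges overlapped, and the difference was 0.13 (95% interval -0.11 to 0.37, adjusted p = 0.42). Dusp5 stood at 6.25, 6.35, 6.38, 6.46 and 6.77 in the tumours and at 6.17 to 6.36, median 6.33, in normal skin. Keratoacanthoma 5 was its highest array, and the difference was 0.15 (95% interval -0.08 to 0.38, adjusted p = 0.34). None of the 6 Dusp4 or 5 Dusp5 probesets passed.

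The gap between the phosphatases was itself tested. Within each array the level of a gene was subtracted from that of a relative, and the groups were compared by an exact two-sided permutation test, for 7 pairs with Benjamini-Hochberg adjustment over the 7. Dusp6 minus Dusp4 rose by 2.03 from normal skin to tumour (0.26 ± 0.25, n = 6, to 2.29 ± 0.16, n = 5; exact p = 0.0043, adjusted p = 0.015). Dusp6 minus Dusp5 rose by 2.01 (exact p = 0.0043, adjusted p = 0.015). Dusp5 minus Dusp4 differed by 0.02 (exact p = 0.86, adjusted p = 0.86).

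Of the RAS genes, Nras rose and Hras did not pass. Nras stood at 9.09, 9.42, 9.03, 9.16 and 9.32 in keratoacanthoma 1 to 5 and at 8.27 to 9.05, median 8.79, in normal skin. Normal skin 6 at 9.05 just exceeded keratoacanthoma 3 at 9.03, and normal skin 2 was the lowest array. The means were 9.20 ± 0.16 (n = 5) and 8.75 ± 0.27 (n = 6), a difference of 0.45 (SE 0.14, limma adjusted p = 0.027). Of 14 probesets 4 were called higher and none lower, by 0.76 to 1.58, and 11 had a positive difference. The call was lost without keratoacanthoma 2 (0.40, adjusted p = 0.075), keratoacanthoma 5 (0.43, 0.068) or normal skin 4 (0.44, 0.050), without the 3 arrays high in hair follicle genes (0.48, 0.076), against double transgenic skin alone (0.63, 0.056) and after quantile normalization of the gene levels (0.15, 0.42).

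Hras read 8.07, 8.01, 7.58, 7.86 and 8.10 in the tumours and 7.52 to 7.95, median 7.74, in normal skin. Keratoacanthoma 3 was near the lower end of normal skin and the other tumours were in or above its range. The difference was 0.19 (95% interval -0.07 to 0.45, adjusted p = 0.28), which turned to -0.01 after quantile normalization. Its 13 probesets went both ways, from -0.60 to 0.64, and none was called. In 2 of the 13 the groups did not overlap, with the tumours higher by 0.41 and 0.45. Of all probesets 11.4% did not overlap. Hras minus Nras changed by -0.26 (exact p = 0.17, adjusted p = 0.30), so that a difference between the 2 changes was not shown.

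The Sprouty genes gave no call in any direction. Spry1 stood at 6.65, 6.65, 6.31, 6.30 and 6.34 in the tumours and at 5.98 to 6.86, median 6.51, in normal skin, so that normal skin enclosed the tumours. Its difference was -0.02 (95% interval -0.33 to 0.30, adjusted p = 0.95). Of its 8 probesets 1 was lower, by 1.07 (SE 0.31, adjusted p = 0.038), and the remaining 7 lay between -0.27 and 0.33. Spry2 stood at 7.27, 6.86, 6.70, 6.91 and 6.76 against 6.76 to 7.32, median 6.95, a difference of -0.08 (95% interval -0.36 to 0.20, adjusted p = 0.70). Here too the groups covered much the same range, with keratoacanthoma 1 and normal skin 2 highest.

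Spry4 read 5.64, 5.35, 5.34, 5.51 and 5.13 in the tumours and 5.00 to 5.41, median 5.29, in normal skin. Its difference was 0.14 (95% interval -0.10 to 0.38, adjusted p = 0.40). Its level was near the dim end of the arrays, whose 25th percentiles over all probesets were 4.88 to 4.95. Upper ends of the 3 Sprouty intervals were 0.20 to 0.38, all below the lower end of the Dusp6 interval at 1.82. Among the Sprouty pairs, Spry2 minus Spry4 differed by -0.22 (exact p = 0.039, adjusted p = 0.091), Spry1 minus Spry4 by -0.16 (exact p = 0.30, adjusted p = 0.42) and Spry1 minus Spry2 by 0.06 (exact p = 0.72, adjusted p = 0.84). The Spry2 and Spry4 pair passed without normal skin 1 (-0.28, adjusted p = 0.019 by the exact permutation test) and against single transgenic skin alone (-0.24, exact test, adjusted p = 0.037).

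Etv4, an ETS factor gene that ERK signalling induces, was close to the threshold. It stood at 6.06, 5.92, 6.16, 6.14 and 6.07 in the tumours and at 5.28 to 6.21, median 5.63, in normal skin. The tumours spanned 0.24 and normal skin 0.93, and normal skin 1, an array high in hair follicle genes, was the highest of all 11. The difference was 0.39 (SE 0.15, adjusted p = 0.072). It passed without normal skin 1 (0.50, adjusted p = 0.011), without the 3 arrays high in hair follicle genes (0.55, 0.011), with that list as a covariate (0.46, 0.010) and with the mean over probesets (0.42, 0.0081). It also passed after quantile normalization (0.46, 0.038) or centring (0.45, 0.037), with array weights (0.40, 0.046) and against single transgenic skin alone (0.48, 0.021). In the other 15 of 23 alternatives Etv4 did not pass. Those included the fits without dim probesets (0.33, limma adjusted p = 0.11) and with the replicate number as a block (0.31, 0.14). Against double transgenic skin alone it did not pass either (0.21, 0.47). Of its 13 probesets 11 had a positive difference, 1 was called higher (by 1.26) and 1 lower (by 0.53).

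**Figure D3:**
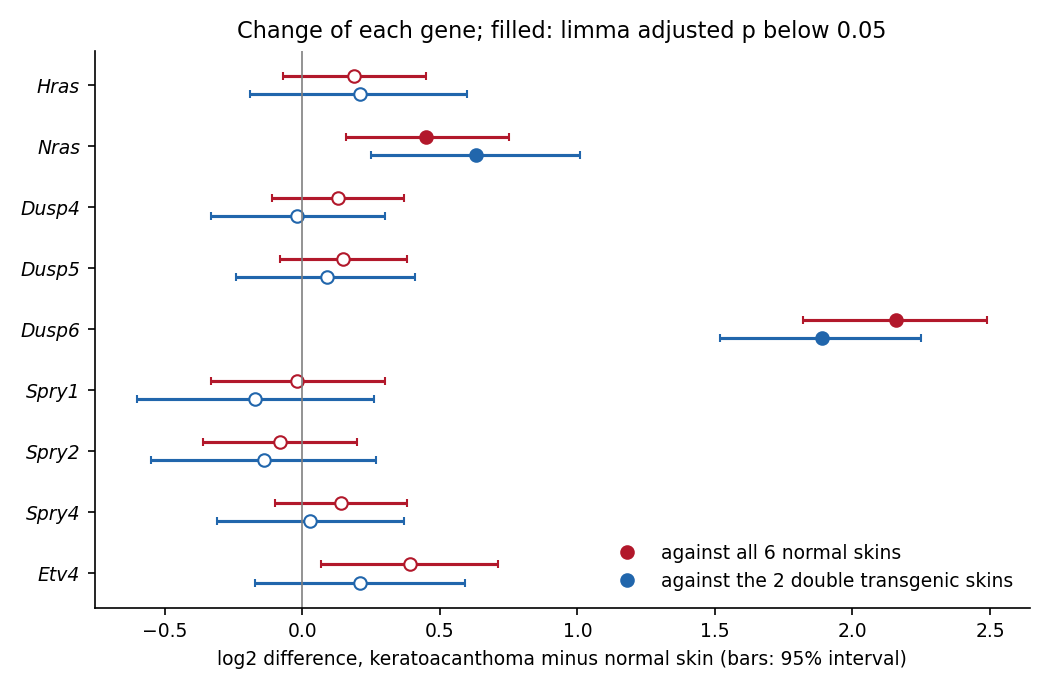
Log2 difference of each gene between keratoacanthoma and all 6 normal skins (red) or the 2 double transgenic skins (blue), with 95% intervals. Filled points passed limma at an adjusted p below 0.05, which were Dusp6 and Nras in both comparisons.

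Tumour and skin of the same genotype were compared in a model of 4 groups, the tumours and normal skin by genotype. This comparison shares its 5 tumours and 2 of its skins with the one above. Again 2 of 9 members were higher and none lower, where 10.6% of all genes were higher and 6.93% lower, 17.6% together. Dusp6 read 6.22 and 6.14 in the double transgenic skins, and its difference was 1.89 (SE 0.17, adjusted p = 0.00014). Nras read 8.88 and 8.27 there, a difference of 0.63 (SE 0.17, adjusted p = 0.031), which was lost without normal skin 2 (0.33, adjusted p = 0.34), keratoacanthoma 2 (0.58, 0.062) or keratoacanthoma 5 (0.60, 0.062) and with quantile normalization (0.31, 0.21), array weights (0.64, 0.099) or the replicate number as a block (0.68, 0.24). The other 7 differences lay between -0.17 and 0.21, none of them called. Etv4, at 0.21, passed without normal skin 1 (0.56, adjusted p = 0.031), with the mean over probesets (0.38, 0.045) and without the 3 arrays high in hair follicle genes (0.54, 0.049), and turned to -0.14 (adjusted p = 0.70) without normal skin 2. Leaving out either skin leaves 1 of that genotype, assumed to vary like the other groups.

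Genotype without tumour moved no member past the threshold. Between double and single transgenic normal skin limma called 0 of 9 members, 1 of them with an unadjusted p below 0.05, and 0.0147% of all genes, with 10.2% at an unadjusted p below 0.05. That member was Dusp6, at 6.18 ± 0.05 (n = 2) against 5.77 ± 0.35 (n = 4), a difference of 0.41 (95% interval 0.03 to 0.79, adjusted p = 0.47). Differences of the members ran from -0.26 for Nras to 0.41.

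The rest of the pathway was read from 7 lists by role, with 92 genes analysed. Of the 92, 16 were higher and 7 lower, or 25%, beside 25.3% of all genes. Of all genes 14.5% were higher and 10.8% lower. By list the share called in either direction ran from 7.14% to 38.1%, and no set test was run. The median change of the 92 genes was 0.10, their highest 1.51, and 2 genes changed at least 2-fold. No gene of the lists therefore reached the rise of Dusp6. Against double transgenic skin in the model of 4 groups, 13 of the 92 were higher and 4 lower. Of all genes 10.6% were higher and 6.93% lower there. Of the 23 pathway genes called against all normal skin, 10 were called in that model too, in the same direction.

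**Figure D4:**
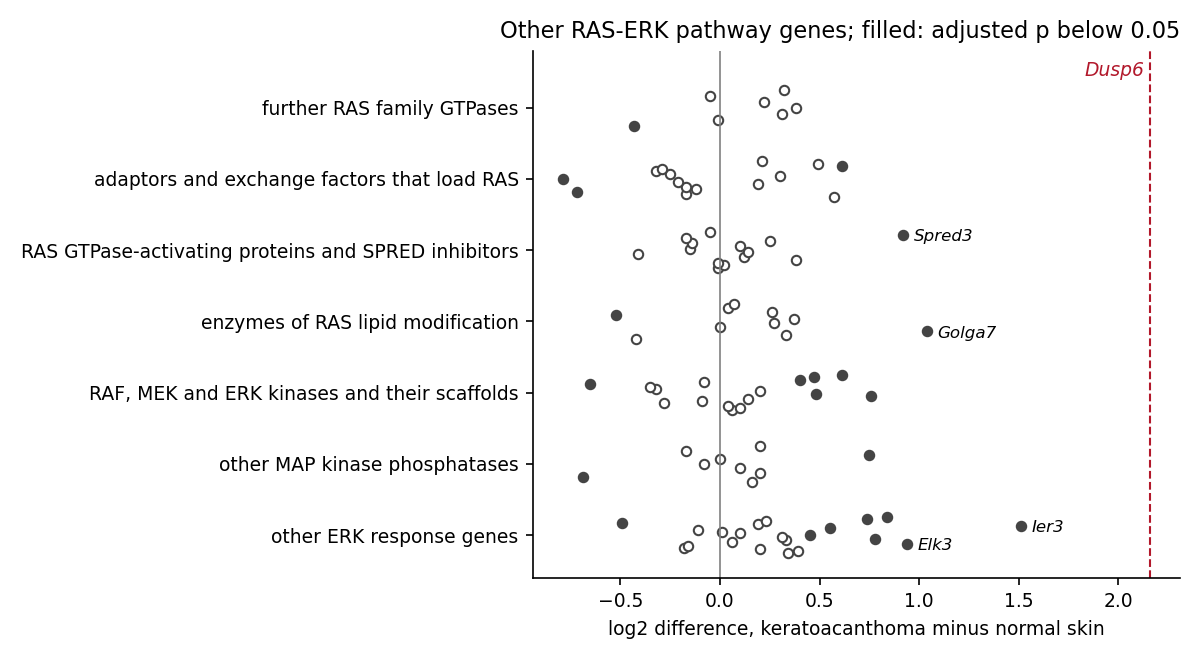
Log2 difference between keratoacanthoma and normal skin for 92 other genes of the RAS and ERK pathway, by role. Filled points passed limma at an adjusted p below 0.05; the dashed line marks Dusp6 at 2.16. Ier3 at 1.51 and Golga7 at 1.04 are the 2 genes that changed at least 2-fold.

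Of 9 other MAP kinase phosphatases 1 was higher and 1 lower (median 0.10). Dusp7, which with Dusp6 belongs to the cytoplasmic phosphatases directed at ERK, stood at 8.34, 8.15, 7.83, 7.86 and 7.70 in the tumours and 7.03 to 7.47 in normal skin. These groups did not overlap, and it rose by 0.75 (SE 0.14, adjusted p = 0.0014). Dusp10, a phosphatase of the JNK and p38 kinases, fell by 0.69 (adjusted p = 0.036), a call lost without keratoacanthoma 2, 3 or 5 or normal skin 1, 2, 5 or 6 (adjusted p 0.055 to 0.093) and under 6 of 12 other settings (0.051 to 0.12). In the model of 4 groups Dusp10 differed from double transgenic skin by -1.05 (limma adjusted p = 0.025).

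Upstream of RAF, among the 14 GTPase-activating proteins and SPRED inhibitors, 1 was higher and none lower (median 0.01): Spred3, a Sprouty-related inhibitor, rose by 0.92 (6.96 ± 0.17 against 6.04 ± 0.17, adjusted p = 1e-04) while Spred1 differed by 0.25 (adjusted p = 0.28, or 0.032 without dim probesets). Of 15 adaptors and exchange factors 1 was higher and 2 lower (median -0.17). The adaptor Shc1 rose by 0.61 (adjusted p = 0.015), the docking protein gene Gab1 fell by 0.72 (0.024, or 0.064 without keratoacanthoma 5 and 0.14 against double transgenic skin alone) and the exchange factor Rasgrf2, dim in the tumours at 4.42, fell by 0.79 (0.00028). Shc1 missed the threshold with the mean over probesets (0.33, adjusted p = 0.061), without dim probesets (0.54, 0.055), against double transgenic skin alone (0.70, 0.052) and without the 3 arrays high in hair follicle genes (0.41, 0.067).

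Among 7 further RAS family GTPases none was higher and 1 lower (median 0.22). This was Mras, which fell by 0.43 (adjusted p = 0.034), a call lost without keratoacanthoma 1, 2 or 5 or normal skin 1, 5 or 6 (adjusted p 0.054 to 0.084) and under 7 of 12 other settings (0.050 to 0.10). Of 10 genes for the lipid modification and membrane transport of RAS, 1 was higher and 1 lower (median 0.17). Golga7, a partner of the palmitoyl transferase of RAS, rose by 1.04 (7.58 ± 0.38 against 6.54 ± 0.26, adjusted p = 0.00088). Pde6d, a carrier of farnesylated proteins, fell by 0.52 (adjusted p = 0.032), a call lost without keratoacanthoma 2, 3, 4 or 5 or normal skin 4 (adjusted p 0.055 to 0.082) and under 3 of 12 other settings (0.056 to 0.22).

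Of 16 RAF, MEK and ERK kinases and scaffolds, 5 were higher and 1 lower (median 0.08), or 37.5%, beside 25.3% of all genes. The MEK genes Map2k1 and Map2k2 rose by 0.76 and 0.48 (adjusted p = 0.010 for each, but 0.066 and 0.12 against double transgenic skin alone) and Shoc2, a scaffold that promotes RAF activation, by 0.61 (0.0026). Braf and Mapk3, which encodes ERK1, differed by 0.10 and 0.20 (adjusted p = 0.76 and 0.44). Pea15a, which holds ERK in the cytoplasm, fell by 0.65 (adjusted p = 0.039), a call lost without keratoacanthoma 1, 3, 4 or 5 or normal skin 4, 5 or 6 (adjusted p 0.053 to 0.092) and under 3 of 12 other settings (0.064 to 0.17).

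Of 21 genes listed as other ERK response genes 7 were higher and 1 lower (median 0.31), or 38.1%, beside 25.3% of all genes. The early response gene Ier3 stood at 8.47, 8.11, 7.99, 7.90 and 8.49 in the tumours and 5.84 to 7.11 in normal skin, without overlap, and rose by 1.51 (SE 0.20, adjusted p = 0.00018). The ETS factor gene Elk3 rose by 0.94 (adjusted p = 0.00048) and the kinase gene Plk3 by 0.84 (0.020), the latter lost without keratoacanthoma 2 or 5 (0.054 and 0.056), with the replicate number as a block (0.077) or against double transgenic skin alone (0.15). Etv5, a relative of Etv4 in the PEA3 family of ETS factors, differed by -0.11 (adjusted p = 0.67), and Maff fell by 0.49 (adjusted p = 0.011) with the sign turned by the mean over probesets (0.26, adjusted p = 0.089) and the call lost against double transgenic skin alone (0.063) or without the 3 arrays high in hair follicle genes (0.093).

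Profiles most like those of the called members were sought over all 11 arrays, among 15542 genes of at least 4 probesets, by the root mean square distance of log2 levels centred on each gene's mean. As the groups differ in both, the distance mostly reads the tumour difference, and it is given without a test. Closest to Dusp6 were Nrg1 (distance 0.232 log2 units), which encodes the ERBB receptor ligand neuregulin 1, Urah (0.269), an enzyme of urate breakdown, and Adamts1 (0.274), a secreted metalloproteinase. Nrg1 averaged 7.18 ± 0.18 in the tumours and 5.11 ± 0.26 in normal skin, a difference of 2.07. Closest to Nras were S100a11 (0.0804), Nipal4 (0.0833) and Actr2 (0.0878), which changed by 0.45, 0.53 and 0.47.

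**Figure D5:**
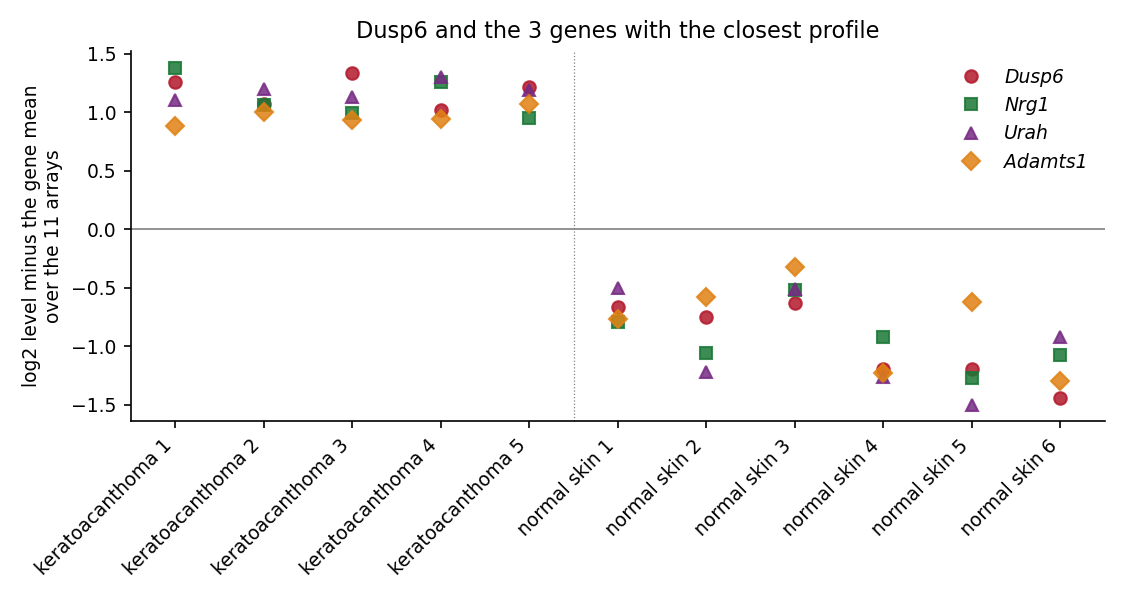
Log2 level minus the gene's mean over the 11 arrays for Dusp6 and the 3 genes with the smallest distance from it. All 4 genes are above 0 on the 5 keratoacanthoma arrays and below 0 on the 6 normal skin arrays, and the lowest values of Urah and Dusp6 are those of normal skin 5 and normal skin 6.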

How the data were processed

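Log2 values of 241576 probesets on 11 arrays were taken as deposited. The submitters' processing notes name RMA, Partek and genome build mm9, with no versions; the authors' normalization was kept. RMA equalises the arrays' distributions, so a difference is relative to the other genes. Array medians were 6.22 to 6.27, and the number of arrays limits the precision.

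Probesets naming 1 gene were kept (212097; 4475 named several and 25004 none), 590 identical ones dropped and older symbols updated through RefSeq (2742 of 20416; Hras was annotated under its older symbol). Fits used R 4.3.3 and limma 3.58.1 (lmFit, eBayes, Benjamini-Hochberg over all genes or probesets, threshold 0.05); figures used matplotlib 3.10.9. The fit of tumour against normal skin was tested on simulated data, among 20352 genes: for log2 changes of 0.5, 1 and 2 the recovery was 33.8% (77 genes), 82.1% (56 genes) and 97.0% (67 genes), and in the comparison with double transgenic skin 6.49%, 42.9% and 92.5%. The simulation changed only these genes, whereas 25.3% of all genes were called in the data. Adjusted p-values depend on that share, so the recoveries do not give the power on the real data. Motif windows came from RefSeq.

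Named pathway genes were up to 3 called in each direction per list with the largest change, plus Braf, Mapk3, Etv5 and Spred1 whatever their value, and for each called member the 3 closest profiles. Some listed genes are not reported here. The members, lists, pairs and tests were chosen with earlier results of these data known. Samples with the same number were not treated as pairs. Their deviations from the group means correlated by -0.181 to 0.103, which cannot decide whether any were paired, as unlike numbers were not compared. Numbers 3 to 5 join skin and tumour of different genotypes. Alternatives were another gene summary, filters, scalings, eBayes settings, array weights, references, a hair follicle covariate, the number as a block and each array left out. The fit without the 3 arrays high in hair follicle genes was added after seeing the data.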

Additional observations from a re-analysis of the deposited data

Results flagged for a closer look

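Among the 9 members and 21 named pathway genes, 60 groups of 5 or 6 arrays were checked for an array far from its group, where chance gives about 1 in 20. Of the members none had such an array. The value of Ier3 in normal skin 5, at 5.84, lay far below the other 5 normal skins at 6.69 to 7.11.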

How the results depend on the processing

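Dusp6 kept its direction and its call in both tumour comparisons under every alternative run (1.89 to 2.36 against all normal skin, 1.55 to 1.96 against double transgenic skin), and its gaps to Dusp4 and Dusp5 kept theirs in the 13 alternatives run for the pairs (mean over probesets, single transgenic reference and each array left out). The count of 2 members higher became 1 (Nras lost) with double transgenic skin alone as reference, 3 (Etv4 gained) with the mean over probesets, centring, array weights, single transgenic skin as reference and the hair follicle covariate, and 1 to 3 when 1 array was left out; after quantile normalization and without the 3 arrays high in hair follicle genes it stayed 2, with Etv4 in place of Nras. In the model of 4 groups it became 1 after quantile normalization, with array weights and with the replicate block, 3 with the mean over probesets and without the 3 arrays, and 1 to 3 when 1 array was left out. The block changed no other member's call. No member was called lower, or between normal genotypes, in any fit. Member probesets called higher (9) fell to 5 with double transgenic skin as reference, rose to 13 with trend and robust eBayes and to 11 without dim probesets or after quantile normalization, and were 6 to 9 with 1 array left out. Those called lower (2) were 1 after quantile normalization, with the replicate block, with double transgenic skin as reference and with the hair follicle covariate, 0 with single transgenic skin as reference or without the 3 arrays, and 0 to 2 with 1 array left out. Pathway genes called lower (7) were 11 with the mean over probesets, 3 after centring, 2 with double transgenic skin as reference, 4 without the 3 arrays, and 2 to 9 with 1 array left out. Over all genes, centring moved the split from 2959 higher and 2200 lower to 3485 and 1677.

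Signs turned only for differences that did not pass in the altered fit. Against all normal skin these were Spry1 (0.046 after centring, 0.024 with array weights, 0.0014 with the block, 0.063 with single transgenic reference, 0.011 without the 3 arrays), Hras (-0.013) and Braf (-0.082) after quantile normalization, Dusp4 (-0.019) and Braf (-0.048) with double transgenic reference, and Maff (0.26) with the mean over probesets. With 1 array left out the differences ran from -0.11 to 0.064 for Spry1 and -0.021 to 0.24 for Braf. Against double transgenic skin in the 4 groups they were Dusp4 (0.042 with the mean, 0.058 without dim probesets, 0.074 after quantile normalization, 0.046 after centring, 0.081 without the 3 arrays), Spry4 (-0.0055 without dim probesets, -0.043 without the 3 arrays), Hras (-0.015 after quantile normalization), and with the block Dusp5 (-0.056), Spry1 (0.031) and Spry2 (0.023). With 1 array left out they ran from -0.14 to 0.1 for Dusp4, -0.41 to 0.067 for Spry1, -0.42 to 0.14 for Spry2, -0.028 to 0.099 for Spry4 and -0.14 to 0.56 for Etv4. Among the pairs, Spry1 minus Spry2 turned with the mean (-0.12) and Dusp5 minus Dusp4 with single transgenic reference (-0.028); with 1 array left out they ran from -0.035 to 0.11 and from -0.04 to 0.057. The cause of these shifts was not tested. Of 17 named pathway genes called, 7 kept their call in every alternative that tested them (Rasgrf2, in 22 of 23, and Spred3, Golga7, Shoc2, Dusp7, Ier3 and Elk3), and 10 lost it in at least 1.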
